A study of Mus musculus with 3 samples.

Results

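The ribosomal protein genes and their paralogues were described in endothelial cells (ECs) of the adult mouse lung. They were chosen by symbol: rows starting with Rpl or Rps and a digit, the 3 stalk genes *Rplp0*, *Rplp1* and *Rplp2*, and *Rpsa*, leaving out the kinase genes Rps6k and names that hold "-ps", of which there were 7. This gave 88 of 24346 rows. Among them were 77 core genes, each the standard gene of 1 protein of the cytosolic ribosome, 31 for the small and 46 for the large subunit. The other 11 rows were 10 paralogues or retrocopies and *Rps19bp1*, which encodes a binding partner of RPS19 and of the deacetylase SIRT1 and no ribosomal protein. The cells came from lungs of wild type C57BL/6J mice, described in the study's methods as males 6 to 8 weeks old, were freshly isolated without culture, and were sorted as CD31+ CD45- Podoplanin- cells after a fluorescent antibody to VE-cadherin had been injected into the living mouse. All 3 libraries, S38, S44 and S52, belong to this 1 group, Adult_Lung_EC, and the labels do not say whether each came from 1 mouse. There is therefore no contrast between conditions and no p-value below, since a sign-flip test over 3 libraries cannot go under 0.25. Differences between libraries measure the spread between samples, part of which may be technical. Poly-A RNA was sequenced without strand information as paired reads, and the authors deposited FPKM values, in which fragments are divided by transcript length and by library size. Values in sets of 3 are given for S38, S44 and S52 in this order.

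Ribosomal proteins are built together with ribosomal RNA into the subunits that translate every mRNA, and most are needed in equal numbers in each ribosome. Mammalian genomes keep a single working gene for most of them and a large set of processed pseudogenes, intronless copies made by reverse transcription of the mRNA. The mRNAs carry a pyrimidine tract at the cap (the 5′ TOP motif) through which growth signalling by mTOR and LARP1 sets their translation, and a few proteins have a paralogue that can take their place in the ribosome.

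The sequence at the start was read first. A pyrimidine tract was more frequent there than over all genes, though most core starts lacked each motif searched. RefSeq (build GRCm38.p6) gave 67 annotated starts for 57 core genes. At 13 of the 67 starts (19.4%) the first base was a C followed by 4 pyrimidines, against 2.21% of 21262 starts of protein-coding genes. Within 5 bases of the start such a tract began at 29 core starts (43.3%) and 18.6% of all starts. The box TATAAA, searched on the gene's strand 45 to 16 bases before the start, was at none of the 67 core starts and at 2.66% of all. The sequence CCGGAAG, searched on both strands of the 300 bases around the start, was at 25 core starts (37.3%) and 11.6% of all. For 75 starts of mitochondrial ribosomal protein genes, whose products form the separate ribosome of mitochondria, these shares were 0% for the tract at the start, 22.7% for the tract within 5 bases and 34.7% for CCGGAAG, close to the share of the core starts. Annotated starts can lie some bases off the start used in these cells, and a match of letters is no measured site. The windows of 30 bases below run from 20 bases before the start to 10 bases from it, 5′ to 3′, with the pyrimidine tract in capitals. They are shown for 4 paralogue families, for *Rps15a* and *Rpl15* at the low end of the levels and for *Rpl41*, the highest core gene, and lie in order at chr3:90213639-90213668 (-), chr9:114982730-114982759 (-), chr9:66946066-66946095 (+), chr7:118116138-118116167 (-), chr4:152325706-152325735 (+), chr3:28805488-28805517 (+), chr14:18270977-18271006 (-), chrX:134585634-134585663 (+), chr12:69184058-69184087 (-), chrX:37085213-37085242 (-), chr16:10170208-10170237 (+) and chr10:128549159-128549188 (-).
Rps27: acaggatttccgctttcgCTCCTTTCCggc
Rps27rt: ggttaagaacttatcccttgCTTTCCggcg
Rps27l: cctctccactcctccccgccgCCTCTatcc
Rps15a: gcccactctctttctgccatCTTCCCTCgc
Rpl22: ccgacttcgccctgggaaaagcaatagctg
Rpl22l1: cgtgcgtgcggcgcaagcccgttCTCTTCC
Rpl15: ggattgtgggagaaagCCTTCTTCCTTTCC
Rpl36a: aggaagtgcacccaggcaccgcctataaac
Rpl36al: gttcgcattcccgtcgctcaggttcagttc
Rpl39: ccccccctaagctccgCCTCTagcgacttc
Rpl39l: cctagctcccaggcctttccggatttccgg
Rpl41: gacgacacacgggccggctcggaagtgacg

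In *Rps27*, *Rps27rt*, *Rps15a*, *Rpl15* and *Rpl39*, genes from both ends of the levels, the tract covers the annotated first base. *Rpl41* has none within 5 bases. For the pairs *Rpl22* with *Rpl22l1* and *Rpl39* with *Rpl39l*, 1 gene of each has a tract. *Rpl22* and *Rps27l* have a further annotated start each, which is not shown.

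The second feature, shared by nearly all core genes, is a set of near-identical copies. In GENCODE M21, 76 of the 77 core genes shared at least 1 coding window of 51 bases, the length of a read, with another annotated gene. The median core gene shared windows with 9 other genes, and *Rpl7a* with 119. In 28 core genes every coding window was also found elsewhere, and the median share of windows found nowhere else was 7.19%. *Rpl7a* is named here for this extreme, after its value was seen. Reads from such windows can be counted for the gene, for the copy, in parts for both or for neither. The sources used here do not say how they were assigned.

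For 11 core genes, a copy that held at least 25% of the coding windows had a row of its own in the table. In 4 of them, *Rps27*, *Rpl30*, *Rpl26* and *Rpl34*, the row of the copy was higher than that of the gene. Each of these copies has 1 exon, whereas the genes have 4 exons (*Rps27*, *Rpl30* and *Rpl26*) or 5 exons (*Rpl34*). The coding stretches below, with the last base of an exon and the first base of the next in capitals, show how a read can match both. Each is split by an intron in the gene and is uninterrupted in the copy. Their junctions lie, on GRCm38, between chr3:90213193 and chr3:90213044 (-) for exons 2 and 3 of *Rps27*, an intron of 148 bases, between chr15:34443025 and chr15:34442780 (-) for exons 1 and 2 of *Rpl30*, an intron of 244 bases, between chr11:68903319 and chr11:68904365 (+) for exons 3 and 4 of *Rpl26*, an intron of 1045 bases, and between chr3:130729229 and chr3:130729150 (-) for exons 2 and 3 of *Rpl34*, an intron of 78 bases.
Rps27 and Rps27rt: acgtgaaatgcccaGGatgctataaaatca
Rpl30 and Gm12191: gccgcaaagaagacGAaaaagtctctggag
Rpl26 and Gm15772: atccaccccagcaaGGtcgttatcaccagg
Rpl34 and Rpl34-ps1: taacaaaactaggcTGtctcgaacccctgg

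The libraries summed to 1153890 to 1603596 FPKM, of which 60.2% to 70.3% lay in 1300 short noncoding genes, named by symbol. Depth, which the table does not give, was estimated from the steps between low values at 38000000, 38900000 and 34300000 fragments. This method was chosen with the values known, and the steps were whole within 0.15 of a fragment for 81.3%, 78.2% and 74.7% of the low values used. The depths were picked to make these same values whole, so the shares describe the fit and are no test of it. At these depths, 1 FPKM of a transcript of 600 bases stands for 16.7, 17.1 and 14.8 fragments, and the lowest core gene, *Rps27*, for about 66.0, 79.7 and 78.2 fragments at its own level. The endothelial identity of the sort was checked with 10 marker genes, all above 43 FPKM in each library. *Pecam1*, which encodes CD31, stood at 1125, 1216 and 1164 FPKM, and *Cdh5*, which encodes VE-cadherin, was at 877, 978 and 908 FPKM. Other endothelial markers were less even: *Kdr*, a VEGF receptor, was at 380, 360 and 237 FPKM and the junction gene *Cldn5* at 1486, 1732 and 1029 FPKM, both lowest in S52, while *Emcn* was at 156, 181 and 267 FPKM and *Erg*, an endothelial transcription factor, at 59.2, 43.1 and 84.8 FPKM, both highest there.

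Core ribosomal protein genes were among the most abundant transcripts of lung ECs. The median core gene was at 466, 533 and 722 FPKM, a mean of 574 ± 133 FPKM (SD, n = 3 libraries), against 0.722 ± 0.167 FPKM (SD, n = 3) for the median row of the table. No core gene was listed at 0, and 71 of 77 had a mean of 100 FPKM or more, a level that 887 rows of the table reached. All 88 rows together took 3.51%, 2.80% and 4.07% of the FPKM sum. Without the short noncoding genes in the sum, the shares were 8.81%, 9.44% and 12.3%. The median small subunit gene was at 573, 575 and 833 FPKM and the median large subunit gene at 404, 453 and 613 FPKM, so the small subunit median was the higher one in each library. The same genes were high or low in each library, with rank correlations of 0.969 between S52 and S38, 0.955 between S52 and S44 and 0.977 between S44 and S38 over the 77 core genes. These points share gene length and sequence, so the correlations describe the table and carry no test.

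**Figure D1:**
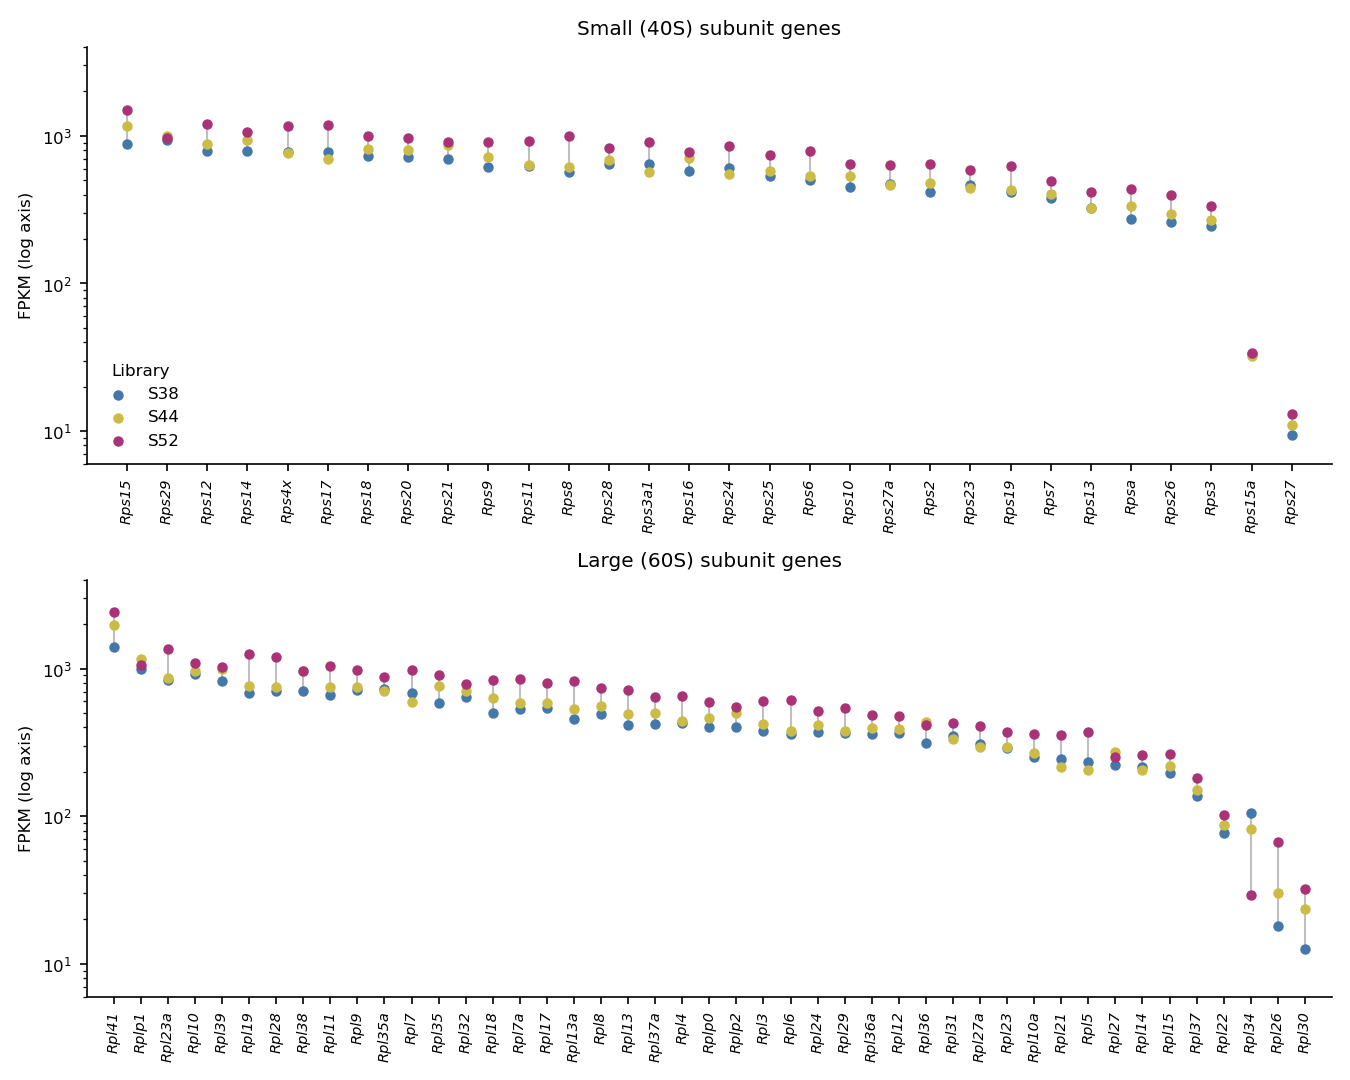
FPKM (log axis) of small subunit and large subunit core genes in the libraries S38, S44 and S52, ordered by their mean. Grey lines join the lowest and the highest library of a gene. Most genes have a mean of 100 FPKM or more, and *Rps15a*, *Rps27*, *Rpl34*, *Rpl26* and *Rpl30* lie apart at the low end.

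*Rpl41*, which encodes the shortest ribosomal protein, was the highest core gene, at 1407, 1961 and 2418 FPKM (1929 ± 506 FPKM, SD, n = 3). *Rps15*, whose product sits in the head of the small subunit near the decoding site, followed at 884, 1158 and 1499 FPKM. S52 was highest and S38 lowest for both. *Rplp1*, an acidic stalk protein that recruits elongation factors, was at 994, 1163 and 1052 FPKM. The levels of its stalk partners were lower, at 404, 464 and 594 FPKM for *Rplp0*, the anchor of the stalk, and at 403, 499 and 546 FPKM for *Rplp2*. The lowest library of *Rplp1* was above the highest of either partner. *Rpl23a*, at the exit of the peptide tunnel, was at 834, 861 and 1354 FPKM, with S52 apart from the other libraries. *Rpl10*, which joins the large subunit late in its assembly, was at 924, 966 and 1089 FPKM. *Rps29* was at 940, 997 and 967 FPKM, *Rps12* at 785, 883 and 1210 FPKM and *Rpl39*, another protein of the exit tunnel, at 823, 989 and 1032 FPKM. All coding windows of *Rpl41*, *Rpl23a*, *Rpl10*, *Rps29* and *Rps12* also occur in other genes, so these levels are uncertain. Of the 8 lowest core genes, *Rpl15* was at 196, 218 and 264 FPKM, *Rpl37* at 137, 150 and 183 FPKM and *Rpl22* at 76.8, 87.5 and 103 FPKM. *Rps15a* was at 33.1, 32.4 and 33.6 FPKM, the narrowest range of any core gene, and no copy of it in the table was higher. Of its coding windows 83.5% were shared with 9 other genes, and reads counted for a copy without a row are not seen here. The other 4 of the 8 lowest core genes were those with a higher copy row.

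*Rps27* encodes a zinc finger protein of the small subunit, and its coding windows were all found in *Rps27rt*, a single-exon retrogene on another chromosome (chr9:114982366-114982739, minus strand). *Rps27* was at 9.39, 11.1 and 13.0 FPKM and *Rps27rt* at 2050, 2339 and 2418 FPKM. *Rps27* thus took 0.456%, 0.471% and 0.535% of the sum of both rows, and *Rps27rt* had the highest mean of all 88 rows (2269 ± 194 FPKM, SD, n = 3). *Rpl30* shared 82.7% of its windows with *Gm12191* on chromosome 11. It was at 12.6, 23.6 and 32.1 FPKM, and *Gm12191* was at 816, 743 and 789 FPKM. *Rpl26* shared 73.5% with *Gm15772* on chromosome 5 and was at 18.0, 30.2 and 67.3 FPKM, with the copy at 747, 732 and 1019 FPKM. *Rpl34* shared 71.8% with *Rpl34-ps1* on chromosome 6 and was at 104, 82.4 and 29.3 FPKM, with the copy at 550, 673 and 821 FPKM. GENCODE lists *Gm12191*, *Gm15772* and *Rpl34-ps1* as processed pseudogenes and *Rps27rt* as protein-coding. The sums of gene and copy came to means of 2280, 805, 871 and 753 FPKM in the order above. They fall within the range of the other core genes for all but *Rps27*, whose sum is above each core gene. The median of means was 30.6 FPKM over the 4 genes and 605 FPKM over the other 73. Expression of the copy cannot be told apart from reads of the gene placed on the copy with these values.

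**Figure D2:**
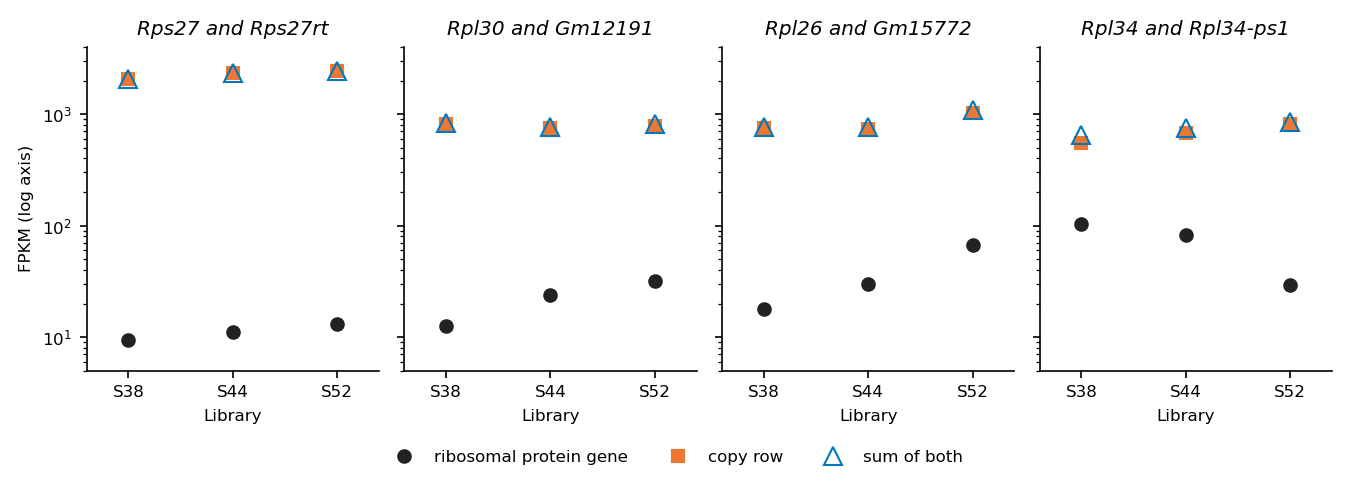
FPKM (log axis) by library of 4 ribosomal protein genes (black circles), the copy row in the table that is higher (orange squares) and the sum of both (open blue triangles). In each panel the copy lies above the gene in every library, and for *Rpl34* the gene is lowest in S52, where its copy is highest.

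Copies with rows of their own stood below the gene in the other 7 core genes. *Rpl37rt*, a transcribed retrocopy that held 82.2% of the windows of *Rpl37*, was at 21.3, 20.9 and 27.7 FPKM, or 14.9% ± 0.875 of *Rpl37* (SD, n = 3). *Rps15a-ps6* and *Rps15a-ps4*, with 54.1% and 37.6% of the windows of *Rps15a*, had means of 9.51 and 4.07 FPKM. The sums of *Rps15a* and *Rps15a-ps6* were 44.4, 45.1 and 38.2 FPKM, still far below the median core gene.

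The paralogues fell into levels from not detected to higher than the standard gene. *Rpl10l*, a retrogene known from the testis, was listed at 0 in all 3 libraries, where *Rpl10* was between 924 and 1089 FPKM. With the estimated depth, a count of 0 allows values up to 0.0916, 0.0894 and 0.102 FPKM, set by 3 fragments and covering counting error alone. *Rpl3l*, the paralogue of *Rpl3* in heart and skeletal muscle, was listed at 0 in S38 and S52 and stood at 0.233 FPKM in S44, about 11 fragments, where *Rpl3* was at 379, 424 and 600 FPKM. *Rpl39l*, another paralogue known from male germ cells, was at 0.365, 0.279 and 1.45 FPKM, about 5.40, 4.24 and 19.0 fragments. *Rpl39l* and *Rpl3l* share no coding window with any other annotated gene. These 3 were the members with a mean under 1 FPKM.

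*Rpl7l1*, a relative of *Rpl7* found in pre-ribosomes of the nucleolus, was at 23.1, 25.4 and 24.96 FPKM, or 3.41% ± 0.874 of *Rpl7* (SD, n = 3), which was at 688, 590 and 975 FPKM. *Rps4l*, annotated as a transcribed processed pseudogene, was at 31.7, 45.2 and 34.3 FPKM, against 775, 767 and 1164 FPKM for *Rps4x*, the X-linked gene of the same protein family. *Rpl36al*, a paralogue that arose by retroposition and kept its reading frame, was at 180, 162 and 183 FPKM, below *Rpl36a* at 362, 396 and 484 FPKM. It amounted to 42.9% ± 6.18 of *Rpl36a* (SD, n = 3). All coding windows of *Rpl36al* and of *Rpl36a* also occur in other genes, so both levels are uncertain.

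*Rpl22l1* stood above its standard gene in each library. It was at 124, 110 and 173 FPKM, and *Rpl22*, which it can replace in the ribosome, was at 76.8, 87.5 and 103 FPKM. The lowest value of *Rpl22l1* was above the highest of *Rpl22*, and their log2 ratio was 0.58 ± 0.23 (SD, n = 3), with 55.7% to 62.7% of the pair's sum in *Rpl22l1*. *Rpl22* had 70.1% and *Rpl22l1* 17.7% of coding windows found in no other gene. A pseudogene row with 81.0% of the windows of *Rpl22l1*, *Gm15421*, was at 4.06, 2.099 and 6.94 FPKM. *Rps27l*, a target of p53, was at 144, 141 and 128 FPKM and stood above the row of *Rps27* in all 3 libraries, by 3.52 ± 0.30 on the log2 scale (SD, n = 3). Against *Rps27rt* it was far lower in each library, so its place in the family depends on which row is taken for the protein S27. *Rps27l* had 52.5% of its windows in no other gene.

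**Figure D3:**
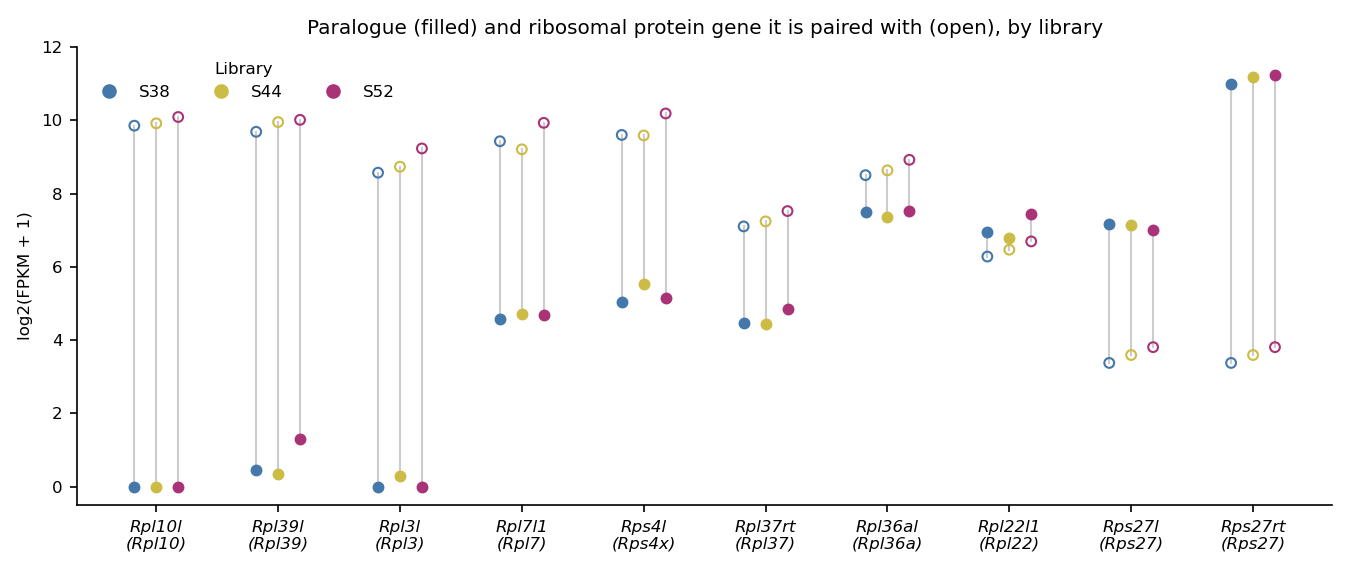
Level, as log2(FPKM + 1), of each paralogue (filled) and of the standard gene in brackets (open) in S38, S44 and S52, ordered by their log2 ratio. *Rpl10l*, *Rpl39l* and *Rpl3l* lie near 0, and *Rpl22l1*, *Rps27l* and *Rps27rt* lie above the gene they are set against in each library.

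*Rps19bp1* was at 12.03, 7.26 and 4.90 FPKM, highest in S38 and lowest in S52, whereas most core genes were highest in S52. *Fau* and *Gnb2l1*, genes of ribosome constituents that the symbol rule does not hold, had levels like the core genes. *Fau*, a ubiquitin-like protein fused to the small subunit protein S30, was at 552, 746 and 880 FPKM. *Gnb2l1*, the table's name for *Rack1* and a signalling scaffold on the small subunit, was at 358, 392 and 531 FPKM.

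The core genes differed between libraries in 1 main way: they were higher in S52. S38 was the lowest library for 62 of 77 core genes, and for 2986 of the 11770 rows with a mean of 1 FPKM or more. S52 was the highest library for 71 of 77 core genes (92.2%), compared with 33.9% of those 11770 rows. The exceptions were *Rpl34*, highest in S38, and *Rplp1*, *Rps29*, *Rpl38*, *Rpl36* and *Rpl27*, highest in S44. On log2(FPKM + 1) the median core gene was 0.51 higher in S52 than in S38, or 1.42-fold, while the median of all rows tested was -0.083. With 1 library on each side, a gene was called past 1.5-fold. Of the core genes 28 (36.4%) were higher in S52 than in S38 by this measure, where the background over all rows tested was 7.14%, and 1, *Rpl34*, was lower, where the background was 17.5%. Against S44, 15 core genes (19.5%) were higher in S52, with a background of 8.37%, and *Rpl34* was again the 1 lower, with a background of 15.5%. The median was 0.37 (1.29-fold) and 71 of 77 genes lay above 0, where 5218 of all 11770 rows tested did. Between S44 and S38 the core genes were close, with a median of 0.14, 2 genes (*Rpl26* and *Rpl30*) higher, with a background of 3.22%, and 0 lower, with a background of 5.28%. Among 716 other rows at 100 FPKM or more, short noncoding genes left out, 9.92% were higher in S52 than in S38 and their median was 0.054.

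The number of genes called depends on the scale of the libraries. When each library was rescaled to the same FPKM sum, the median of all rows tested moved by -0.27 for S52 over S38, 0.15 for S52 over S44 and -0.43 for S44 over S38, and 4, 33 and 0 core genes were higher and 1, 1 and 7 lower. The shares of all rows tested on that scale were 3.24%, 13.4% and 1.096% higher and 31.0%, 11.2% and 31.9% lower. The 4 higher core genes (5.19%) thus lay near that background, and the 7 lower (9.09%) were fewer than their background. Short noncoding genes made up 60.2% to 70.3% of the FPKM sum. With these left out of the sum, 26, 16 and 2 core genes were higher (33.8%, 20.8% and 2.60%). The shares of all rows tested were then 6.58%, 8.90% and 2.82%, so the 2 were no more than the background. On that scale 1, 1 and 0 core genes were lower, beside 18.3%, 14.9% and 6.34% of all rows tested. Rescaling to the same median over rows at 1 FPKM or more moved the median of all rows tested by 0.13 for S52 over S38 and gave 46, 24 and 2 core genes higher, beside 11.2%, 10.9% and 3.77% of all rows tested, so the 2 (2.60%) were no more than the background. With the same sum, the core median for S52 over S38 was 0.21, and that for S44 over S38 turned to -0.33. Taken relative to the median of all rows tested, the core genes were 0.59 higher in S52 than in S38. They were 0.43 higher in S52 than in S44 and 0.17 higher in S44 than in S38. Over all 3 rescalings these differences were 0.56 to 0.61, 0.44 to 0.46 and 0.13 to 0.18. A rescaling multiplies all rows of a library alike, so the differences could change only through the pseudocount. Their evenness is therefore no support.

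**Figure D4:**
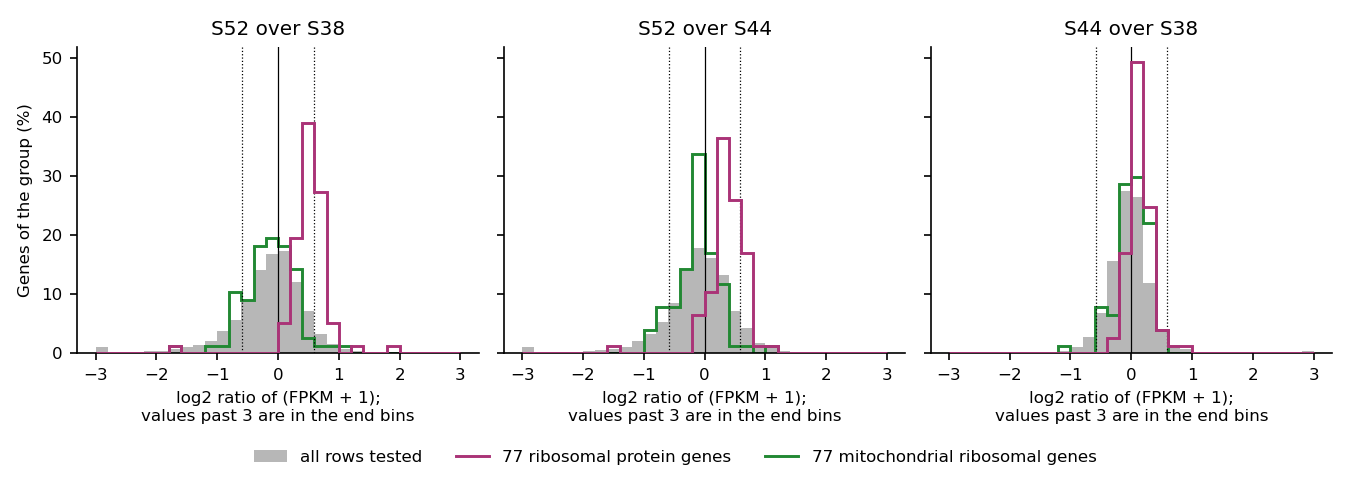
Distribution of log2 ratios of (FPKM + 1) between pairs of libraries for all rows tested (grey), 77 core ribosomal protein genes (purple) and 77 mitochondrial ribosomal protein genes (green), in percent of the group per bin of 0.2. Dotted lines mark 1.5-fold. The purple outline sits to the right of the grey in both panels with S52 and close to it for S44 over S38.

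The genes moved by unequal amounts. The widest ranges belonged to 3 genes with a higher copy row: *Rpl26* (highest over lowest library 3.74), *Rpl34* (3.56) and *Rpl30* (2.55). With the copy added, *Rpl26* differed 1.42-fold between S52 and S38, *Rpl30* 0.991-fold and *Rpl34* 1.30-fold, so *Rpl34* with its copy was higher in S52, not lower. Among the next was *Rpl19*, a protein of the large subunit, at 680, 764 and 1256 FPKM, highest in S52 by 1.85-fold over S38. At the other end were *Rps15a* (1.04), *Rps29* (1.06), *Rplp1* (1.17), *Rpl10* (1.18) and *Rpl32* (1.23), the last at 640, 710 and 785 FPKM. Over all core genes the median ratio of highest to lowest library, here of FPKM + 1, was 1.47, compared with 1.35 for all rows tested, and 3 core genes (3.90%) ranged past 2-fold, compared with 12.7% of all rows. The added 1 lowers this ratio more in rows of low level than in most core genes. Longer genes had the larger ratios in both pairs with S52 and not between S44 and S38. Over the 73 core genes without a higher copy row, the rank correlation of coding length with the log2 ratio was 0.45 for S52 over S38, 0.57 for S52 over S44 and -0.22 for S44 over S38. For transcript length it was 0.30, 0.45 and -0.25 in the same order. For the percent of G and C bases in the transcript it was 0.31, -0.077 and 0.51, so length was not the only trait that went with the ratios. In the 37 genes with a transcript of at most 751 bases the medians were 1.36-fold for S52 over S38, 1.24-fold for S52 over S44 and 1.12-fold for S44 over S38, and in the 36 longer ones they were 1.49-fold, 1.38-fold and 1.08-fold. These points share the same libraries, and length also enters FPKM as its divisor.

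Of the 8 non-core rows tested, 0 were higher in S52 than in S38 past 1.5-fold, where the background was 7.14%, and *Rps19bp1* was lower. Their median log2 ratio was 0.11 as deposited and from -0.18 to 0.25 over the rescalings, or 0.19 above the median of all rows tested. *Rps27rt* was 1.18-fold, *Rpl22l1* 1.39-fold, *Rpl36al* 1.02-fold and *Rps27l* 0.890-fold of its level in S38. *Rpl22l1* was past 1.5-fold over S44 (1.57-fold).

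Other genes of translation were read from lists made with earlier results known, against the same background of 7.14% higher and 17.5% lower for S52 over S38. Among 17 translation factors and other mRNAs known for a 5′ TOP tract, all were above 0 for S52 over S38. Over all 11770 rows tested, 5049 were above 0. Of the 17, 6 (35.3%) were past 1.5-fold and 0 lower, with a median of 0.53, which ranged from 0.24 to 0.68 over the rescalings. RefSeq gave 12 starts for 11 of them. A tract lay at 1 start (8.33%, against 2.21% of all starts) and within 5 bases of 3 (25%, against 18.6%). *Tpt1* and *Eef2* had none at their annotated start. *Eef1a1*, which brings aminoacyl-tRNA to the ribosome, was at 2593, 2666 and 3913 FPKM. *Tpt1*, an abundant mRNA of this class, was at 2157, 2050 and 3123 FPKM, and *Eef2*, the translocase, was at 565, 633 and 917 FPKM. S52 was apart from the other libraries in each of the 3. *Fau* was past 1.5-fold for S52 over S38 and *Gnb2l1* was not, at 1.60-fold and 1.48-fold. The 77 mitochondrial ribosomal protein genes were at a median of 19.3, 19.6 and 16.5 FPKM, and 3 (3.90%) were higher and 12 (15.6%) lower in S52 than in S38, shares under or near the background, with a median of -0.11 that was 0.026 when libraries had the same median. Their 3 highest were *Mrps21* (136, 142 and 137 FPKM), *Mrpl33* (78.6, 95.0 and 89.7 FPKM) and *Mrpl20* (51.9, 77.8 and 56.2 FPKM). Of 28 genes of ribosome assembly, 2 (7.14%, as in the background) were higher and 0 lower, with a median of 0.12 that turned to -0.15 with the same sum, while 7 (25%) were higher than in S44, where the background was 8.37%. The highest were *Sbds*, which helps release *Eif6* from the large subunit, at 164, 174 and 191 FPKM, *Nop58*, a box C/D snoRNP protein, at 77.6, 60.6 and 114 FPKM, and *Eif6* at 52.1, 63.4 and 60.2 FPKM. Of 11 genes that regulate TOP mRNAs, 0 were higher and 3 (27.3%) lower. *Cnbp*, an RNA-binding protein, led them at 177, 180 and 182 FPKM, ahead of *Tsc2*, a brake on mTOR, at 23.6, 21.8 and 25.9 FPKM and *Eif4ebp2*, an inhibitor of cap binding, at 24.2, 21.5 and 23.6 FPKM.

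Markers of other cells differed between the libraries too. All 6 platelet genes were past 1.5-fold lower in S52 than in S38, where the background was 17.5%, with a summed level of 1792, 1447 and 44.8 FPKM. *Ppbp*, *Pf4* and *Itga2b* led them, and *Ppbp* was at 1054, 778 and 15.97 FPKM. All 5 alveolar type 2 genes were lower as well (sums of 3756, 3156 and 760 FPKM, with *Sftpc* at 3333, 2862 and 658 FPKM, followed by *Sftpb* and *Sftpa1*), as were all 5 airway genes (2779, 2316 and 407 FPKM, with *Scgb1a1* at 2669, 2212 and 378 FPKM, followed by *Scgb3a2* and *Cyp2f2*). Leukocyte genes summed to 1055, 785 and 168 FPKM, nearly all from *Lyz2*, with *Ptprc* at 4.30, 2.06 and 0.434 FPKM, *Csf1r* at 1.25, 1.85 and 1.30 FPKM and *Cd3e* listed at 0 in S52. Erythroid genes summed to 394, 789 and 94.6 FPKM and were led by *Hbb-bs*, *Hba-a1* and *Hba-a2*. They fell unevenly in S52: *Hbb-bs* was at 185, 308 and 0.0032 FPKM and *Hba-a2* at 56.5, 321 and 0.016 FPKM. *Hba-a1* was at 147, 147 and 91.0 FPKM and *Alas2* at 4.37, 13.9 and 3.56 FPKM. Sequence shared between globin genes was not searched, so their single rows are uncertain. Fibroblast genes summed to 75.4, 59.5 and 40.1 FPKM (*Dcn*, *Col1a2* and *Col3a1* highest). Mural genes went the other way and were higher in S52 together with the core genes. Their median log2 ratio was 0.56 for S52 over S38, from 0.31 to 0.67 over the rescalings, with 0 of 4 past 1.5-fold on log2(FPKM + 1), and 0.85 for S52 over S44, with 4 of 4 past it. *Pdgfrb* was at 6.47, 4.80 and 10.1 FPKM, *Rgs5* at 5.75, 3.31 and 9.11 FPKM and *Cspg4* at 0.900, 0.670 and 1.81 FPKM, while *Acta2*, at 90.3, 46.7 and 79.7 FPKM, made up most of their sum of 103, 55.5 and 101 FPKM and was highest in S38. The 10 endothelial genes, led by *Cldn5*, *Pecam1* and *Egfl7*, summed to 6369, 7058 and 6291 FPKM, with a median log2 ratio of 0.092 for S52 over S38, or -0.21 with the same sum. The part of these other cells in the higher core levels of S52 was not tested. In bulk samples, fewer cells of a type and less RNA per cell cannot be told apart.

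**Figure D5:**
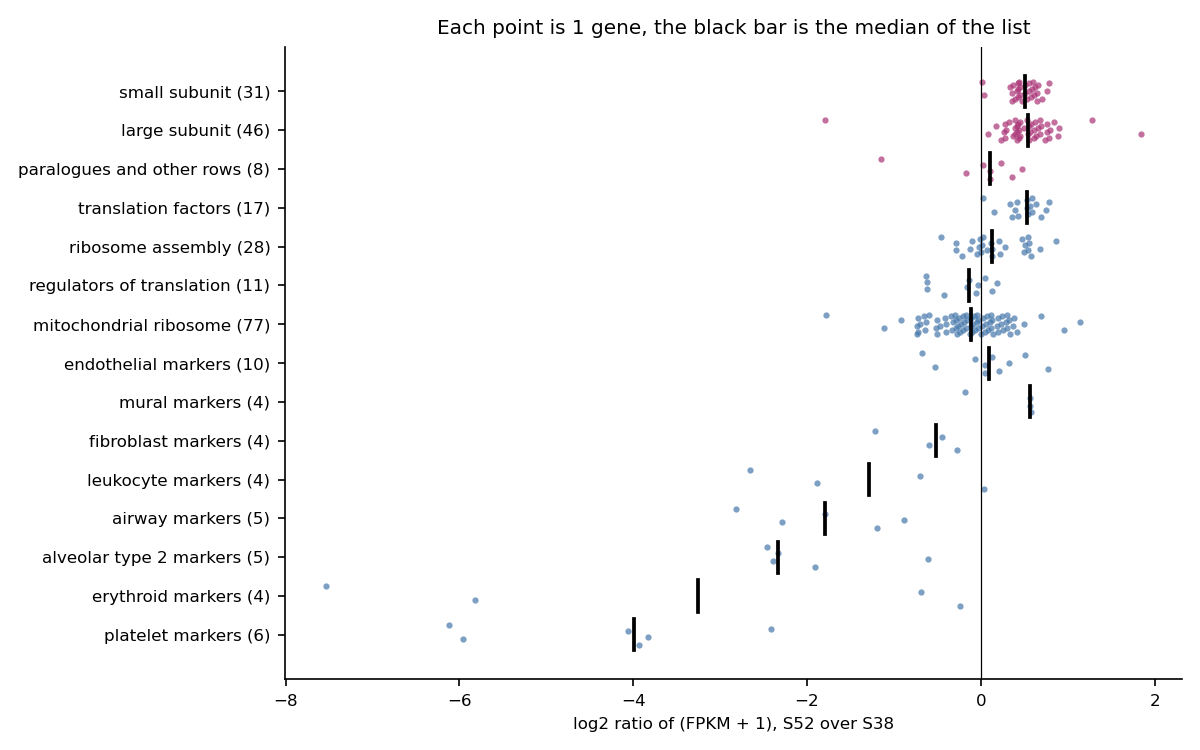
Log2 ratio of (FPKM + 1) of S52 over S38 for each gene of the ribosomal protein groups (purple) and of other lists (blue), with the number of genes tested in brackets and the median as a black bar. Both subunits, the mural markers and the list labelled translation factors have medians of 0.50 to 0.56. That list also holds other mRNAs known for a 5′ TOP tract. The medians of platelet, erythroid, alveolar type 2, airway and leukocyte markers are below -1.2. The erythroid markers *Hba-a1* and *Alas2* lie at -0.69 and -0.24, and the leukocyte marker *Csf1r* lies at 0.032.

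In the genome the core genes lay on 19 chromosomes, 14 of them on chromosome 7, 7 on chromosome 11 and 4 on X. Many span genes of small nucleolar RNAs, a class that guides the modification of ribosomal RNA. Whether such a gene lies in an intron was not checked. GENCODE M21 placed 58 such genes within 30 of the members on the same strand, and 33 of them had a row in the table. Of these rows 13 were listed at 0 in every library, 7 were above 0 in every library and the others were at 0 in some. The values above 0 were erratic. *Snord100*, within *Rps12*, was listed at 0 in S38 and at 36947 and 23735 FPKM in S44 and S52, while *Rps12* itself was between 785 and 1210 FPKM. *Snord33*, 1 of 4 within *Rpl13a* and above 0 in every library, was at 12944, 1372 and 35449 FPKM, and its host at 459, 533 and 822 FPKM. Small nucleolar RNAs lack a poly-A tail, so these rows were not compared further. They and their 2 hosts were named after their values were seen.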

How the data were processed

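The authors deposited 1 table of FPKM values (fragments scaled by gene length and library size) by gene symbol for the 3 libraries, 1 column each. The submitters' processing notes name bcl2fastq 2.17, FastQC 0.11.5, Trimmomatic 0.36, TopHat2 2.1.0, Cufflinks 2.2.1 and the build mm10. The study's methods describe another route, with STAR and HTSeq, for the counts it tested. The gene annotation is not given in the sources used here. All sample columns were used (0 left out), as deposited.

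Rows, gene lists, the paralogue pairs and named genes were chosen with earlier results of these data known. Named were all non-core members and their standard genes, the 8 highest and 8 lowest core genes, the 5 with the largest and the 5 with the smallest ratio between libraries, the stalk, *Gnb2l1*, *Fau* and the 3 highest genes of each other list. Some genes named by it are not reported here. Ratios used log2(FPKM + 1) over rows with a mean of at least 1 FPKM, called past 1.5-fold. Other groups of the study were not analysed here, so no test was possible.

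Of the rows, 23952 (98.4%) matched GENCODE M21, the source of positions, lengths and shared 51-base windows. Gene length uses 1 basic transcript. Depth was estimated over genes with 1 transcript of 800 to 4000 bases, with 160 (S38, S44) or 170 bases (S52) subtracted. The calls and the depth search were tested on simulated data. Alternatives were other scalings, pseudocounts, thresholds and filters, and each library left out. Python 3.11.15, numpy 2.4.6, pandas 2.3.3 and matplotlib 3.10.9 were used.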

Additional observations from a re-analysis of the deposited data

How the results depend on the processing

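No paired analysis was possible because all libraries belong to 1 group. Leaving out each library in turn gave a core median of 494 to 607 FPKM, a share of 3.16% to 3.79% of the FPKM sum and an SD of log2 levels over core genes of 1.30 to 1.33, around values of 546 FPKM, 3.46% and 1.31 with all libraries. Without short noncoding genes in the sum the share was 10.2%. Without the 4 genes that have a higher copy row, an alternative chosen after the data were seen, the SD was 0.876. At a threshold of 2-fold, 2 core genes were higher in S52 than in S38, 1 in S52 than in S44 and 0 in S44 than in S38. The share of all rows tested at 2-fold was not taken, so these counts are no result about the core genes. With each library rescaled to the same sum, 4, 33 and 0 core genes were higher past 1.5-fold for the same pairs, beside 3.24%, 13.4% and 1.096% of all rows tested, and the median log2 ratio of S44 over S38 turned to -0.33. With short noncoding genes left out of that sum, 26, 16 and 2 were higher, beside 6.58%, 8.90% and 2.82% of all rows tested. With the same median over rows at 1 FPKM or more, 46 and 24 were higher in S52, beside 11.2% and 10.9% of all rows tested. The log2 ratio of a paralogue to its standard gene moved most with a pseudocount of 0.1 where a gene was near 0, to -11.6 for *Rpl3l*, -13.3 for *Rpl10l* and -10.5 for *Rpl39l*, and to 7.66 for *Rps27rt*, and no paralogue changed direction under any alternative. Of 138 alternative values, 123 moved by less than the spread between libraries or stayed within 1.5 times the count, 14 moved further and 1 changed sign. Part of the 123 could hardly move. Rescaling cancels, save for the pseudocount, in the ratio of a paralogue to its standard gene and in the core median relative to all rows. A filter at 10 FPKM left the core genes unchanged, since the lowest has a mean of 11.2 FPKM. Low values limit *Rpl10l*, *Rpl3l* and *Rpl39l*, and shared sequence limits the rows of *Rps27*, *Rpl30*, *Rpl26*, *Rpl34* and their copies. It can also touch the levels of the other core genes, since 76 of the 77 shared coding windows with another gene. In 28 core genes every coding window was shared.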
